A study of Mus musculus with 9 samples.

Results

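Metallothioneins and the genes that sense and move zinc were examined in mouse embryonic fibroblasts under hyperosmotic stress. The set held the metallothionein genes Mt1 and Mt2, the transcription factor Mtf1, the zinc exporter Slc30a1 and the zinc importers Slc39a10 and Slc39a14. They were taken by gene symbol and were 6 of 35275 genes in the table. The set was chosen with earlier results of these data known, so its shares beside those of all genes are descriptions. All 6 were among the 13082 genes that passed the filter on low counts. The cells were wild type fibroblasts of the strain C57Bl/6, kept in iso-osmolar medium (300 mOsm) or exposed for 3 h to medium raised to 500 mOsm with 200 mM sucrose or to 600 mOsm with 300 mM sucrose. The study used the lower intensity as a stress to which the cells adapt and the higher as one to which they do not. Each medium was represented by 3 libraries of mRNA captured with poly-T.

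Metallothioneins are small proteins very rich in cysteine that bind zinc and copper and buffer them in the cell. The transcription factor MTF-1, the product of Mtf1, binds zinc through its zinc fingers and then activates genes with metal response elements in their control regions, among them Mt1, Mt2 and the zinc exporter gene Slc30a1, whereas it holds down the importer gene Slc39a10. The RNA levels of Mt1, Mt2 and Slc30a1 are therefore widely used as readouts of cellular zinc. Proteins of the Slc30 family (ZnT) move zinc out of the cytoplasm, and those of the Slc39 family (ZIP) move it in.

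The metallothionein coding sequences are shown first because they carry the feature that defines the family. Both are from GENCODE M21, each read from start to stop codon, with the cysteine codons TGC and TGT in capitals.
Mt1: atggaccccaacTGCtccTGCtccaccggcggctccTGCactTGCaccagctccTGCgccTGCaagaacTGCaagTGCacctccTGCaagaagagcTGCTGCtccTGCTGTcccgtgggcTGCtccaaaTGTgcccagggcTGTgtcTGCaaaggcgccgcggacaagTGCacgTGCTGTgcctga
Mt2: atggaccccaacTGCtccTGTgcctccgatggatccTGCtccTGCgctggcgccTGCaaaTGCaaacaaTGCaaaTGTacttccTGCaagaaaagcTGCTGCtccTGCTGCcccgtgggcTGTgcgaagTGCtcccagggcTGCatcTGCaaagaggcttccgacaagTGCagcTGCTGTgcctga
Each held 20 cysteine codons among 61 codons, and all 20 stood at the same positions in both genes. The 186 bases of the 2 sequences were identical at 148 positions (79.57%), and their longest identical run was 20 bases, shorter than the reads of 150 bases. No alignment of at least 100 bases at 95% identity joined Mt1 to Mt2 or to another gene's transcript.

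The bases before the annotated starts of Mt1, Mt2 and Slc30a1 are shown because these are the members that MTF-1 is known to activate. The sequences are the 250 bases before the annotated start in RefSeq (GRCm38.p6, the build of mm10), read in the direction of the gene, which is the plus strand for all 3. Capitals mark matches to the core of the metal response element, searched on both strands as TGCACNC or TGCGCNC. The window of Mt1 is chr8:94178839-94179088, that of Mt2 chr8:94172368-94172617 and that of Slc30a1 chr1:191906531-191906780.
Mt1: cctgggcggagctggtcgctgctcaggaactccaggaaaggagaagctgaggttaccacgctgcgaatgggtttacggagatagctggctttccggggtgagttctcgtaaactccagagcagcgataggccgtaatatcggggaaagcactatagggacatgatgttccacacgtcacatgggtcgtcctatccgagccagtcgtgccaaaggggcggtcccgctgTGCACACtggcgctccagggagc
Mt2: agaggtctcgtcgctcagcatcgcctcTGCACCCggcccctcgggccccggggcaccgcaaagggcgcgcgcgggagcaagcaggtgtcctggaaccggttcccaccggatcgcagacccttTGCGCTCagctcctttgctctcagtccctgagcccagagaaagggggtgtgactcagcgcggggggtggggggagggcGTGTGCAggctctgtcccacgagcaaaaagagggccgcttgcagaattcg
Slc30a1: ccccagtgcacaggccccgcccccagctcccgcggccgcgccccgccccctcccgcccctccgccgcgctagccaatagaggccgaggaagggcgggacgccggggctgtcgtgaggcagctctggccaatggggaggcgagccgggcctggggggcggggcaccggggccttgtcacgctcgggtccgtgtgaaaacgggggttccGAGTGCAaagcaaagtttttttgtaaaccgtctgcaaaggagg
These windows held 3 matches for Mt2, 1 for Mt1 and 1 for Slc30a1, and none for Mtf1 or for either of the 2 annotated starts of Slc39a10. At least 1 match was found in 21.4% of 32851 promoter windows of the same length and at least 3 in 1.26%. None of the matches overlapped another.

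The annotated starts of Mt1 and Mt2 lie upstream of further matches, so the windows above do not hold all the matches near these starts. The further matches are shown as sites of 19 bases with the match in capitals, in order along the transcript.
Mt1 base 10 to 16: gagctcTGCACTCcgcccg
Mt1 base 28 to 34: gaaaagTGCGCTCggctct
Mt1 base 92 to 98: cctgctGGGTGCAaaccct
Mt1 base 106 to 112: acccttTGCGCCCggactc
Mt2 base 13 to 19: aagggcGTGTGCAggcggc
Mt2 base 32 to 38: gggggcGCGTGCAtggtgc
Mt2 base 66 to 72: agctttTGCGCTCgaccca
The first 180 bases of the transcript thus held 4 matches in Mt1 and 3 in Mt2, beside 1 in Slc30a1 and 0 in Mtf1, Slc39a10 and Slc39a14. Slc39a10 held 2 matches in the 587 bases before its start codon, a length for which no share over all transcripts was computed. At least 1 match was found in the first 180 bases of 17.6% of 58664 protein-coding transcripts, at least 3 in 0.506% and at least 4 in 0.0801%, where transcripts of 1 gene share sequence. The letters TATAAA, found in the first 180 bases of 2.21% of these transcripts, began at base 129 in Mt1 and at base 90 in Mt2, after all the matches listed. A match describes the letters and does not show that a factor was bound.

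In mm10 coordinates of the table, Mt1 (ENSMUSG00000031765) lies at chr8:94179089-94180325 and Mt2 (ENSMUSG00000031762) at chr8:94172618-94173567, both on the plus strand. Mtf1 (ENSMUSG00000028890) lies at chr4:124802104-124849800 and Slc30a1 (ENSMUSG00000037434) at chr1:191906767-191913247, on the plus strand as well. Slc39a10 (ENSMUSG00000025986) lies at chr1:46807544-46892852 and Slc39a14 (ENSMUSG00000022094) at chr14:70303469-70351425, on the minus strand. All 6 are protein-coding genes.

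The libraries held 21716042 to 26740832 reads counted on genes, and a count of 3 corresponded to 0.112 to 0.138 CPM (the count scaled to a common library total). This limit accounts for counting error alone. Of 9 fibroblast markers, 8 had an FPKM (the count scaled to gene length and library total) above 1 in every group, while Dcn was at or near 0. Some of the 8 moved with the medium (adjusted p under 0.05). Col3a1 fell by 1.27 on the log2 scale at 500 mOsm and by 0.65 at 600 mOsm, and Pdgfra by 0.70 and 0.68. Pdgfrb rose by 0.17 and 0.29, and Col1a1 and Col1a2 rose at 600 mOsm by 0.33 and 0.26. Of all genes tested, 28.0% were called at 500 mOsm and 35.1% at 600 mOsm. Markers of other cell types were low but moved with the medium, most at 500 mOsm. The 4 epithelial markers summed to 0.0317 to 0.237 FPKM in iso-osmolar medium, 1.08 to 1.47 at 500 mOsm and 0.117 to 0.275 at 600 mOsm. Of these Cdh1 rose from at most 1 count to 86 to 91 counts at 500 mOsm (adjusted p = 8.75e-08), and Epcam had at most 1 count in any library. The endothelial markers summed to 0.202 to 0.246 FPKM in iso-osmolar medium, 3.36 to 3.83 at 500 mOsm and 0.577 to 0.901 at 600 mOsm, with Pecam1 the highest of them in both stressed groups and Cdh5 in iso-osmolar medium. The macrophage markers summed to 3.24 to 3.57, 4.29 to 4.58 and 3.30 to 3.56 FPKM in the same order, and Csf1r rose at 500 mOsm by 0.38 on the log2 scale (adjusted p = 0.00695), while the pan-leukocyte marker Ptprc reached at most 0.0505 FPKM. Their part in the results for the 6 genes was not tested.

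Per length, the genes differed widely in level in iso-osmolar medium. Mt2 was the highest with 40.3 ± 3.01 FPKM (SD, n = 3), followed by Slc39a14 with 31.3 ± 0.856, Mt1 with 10.3 ± 0.493, Slc39a10 with 4.20 ± 0.408, Slc30a1 with 3.42 ± 0.0737 and Mtf1 with 3.16 ± 0.0769. No neighbours in this order overlapped between libraries. At both stress intensities the libraries of Mt2 and Slc39a14 overlapped, and Slc30a1 stood below Mtf1 without overlap. The plot of levels by library shows these values.

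**Figure D1:**
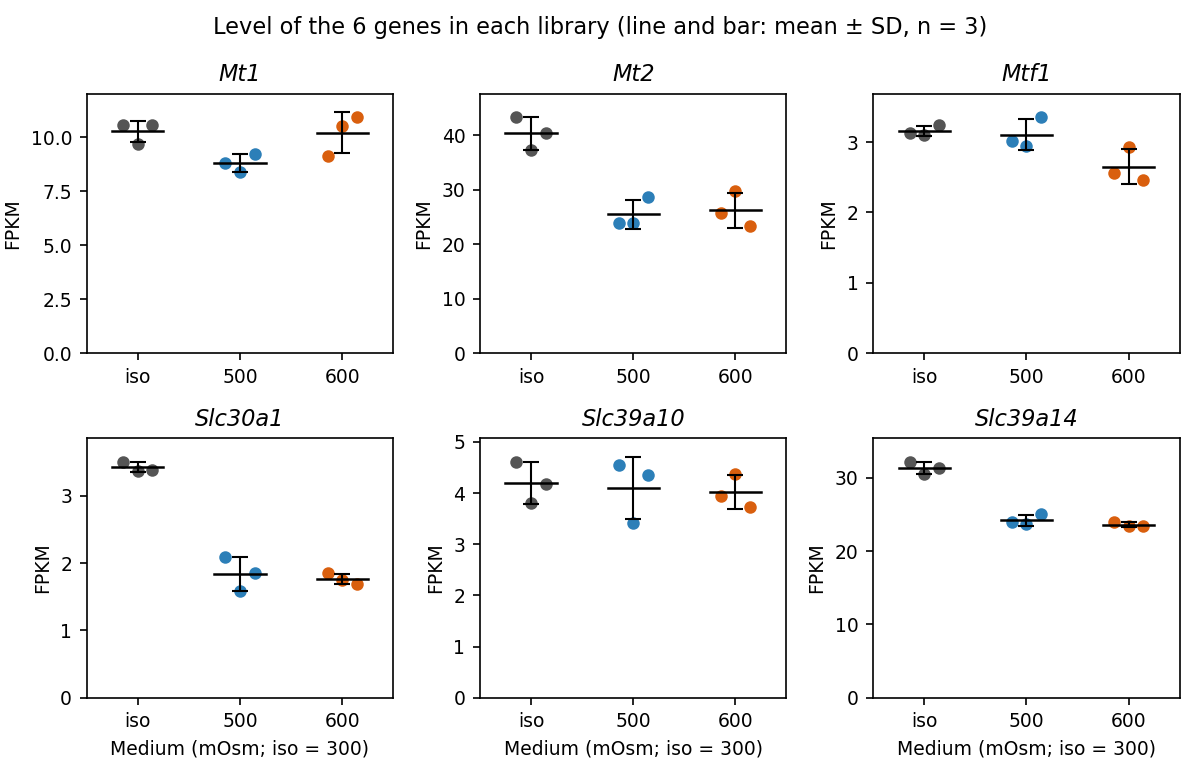
FPKM (vertical axes, from 0) of the 6 genes in the 3 libraries of each medium (horizontal axes, mOsm). Points are libraries, and lines with bars are means ± SD. Mt2, Slc30a1 and Slc39a14 lie lower in all stressed libraries than in all iso-osmolar ones, whereas Slc39a10 overlaps in all 3 media.

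After 3 h at 500 mOsm, 3 of the 6 genes had fallen against iso-osmolar medium and none had risen. The exporter gene Slc30a1 fell by 46.1%, Mt2 by 36.7% and the importer gene Slc39a14 by 22.6%. For Mt1, Mtf1 and Slc39a10 the test was not passed. Over all genes tested, 14.8% were called lower, 13.2% higher and 28.0% in either direction at this intensity. At 600 mOsm 4 of the 6 were called lower, the same 3 genes and Mtf1, where 20.0% of all genes tested were called lower, 15.1% higher and 35.1% in either direction. Between 600 and 500 mOsm 0 of the 6 were called, where 29.1% of all genes tested were called in either direction. In CPM, 4 of the 6 lay below iso-osmolar medium without overlap between libraries at 500 mOsm, beside 20.8% of all genes tested, and 4 at 600 mOsm, beside 25.5%. Between the 2 intensities 1 member, Mtf1, had an unadjusted p under 0.05, and DESeq2 called 0 of the 6. All 3 comparisons used edgeR's quasi-likelihood test with Benjamini-Hochberg adjustment over 13082 genes and a threshold of 0.05. In RNA from a mixed culture, fewer cells with a transcript and less of it per cell cannot be told apart, and the values compare shares of a library rather than amounts per cell. Nothing in the labels says that the 3 libraries of a group came from separate cultures, so the p-values measure the spread between these libraries, which may be technical.

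**Figure D2:**
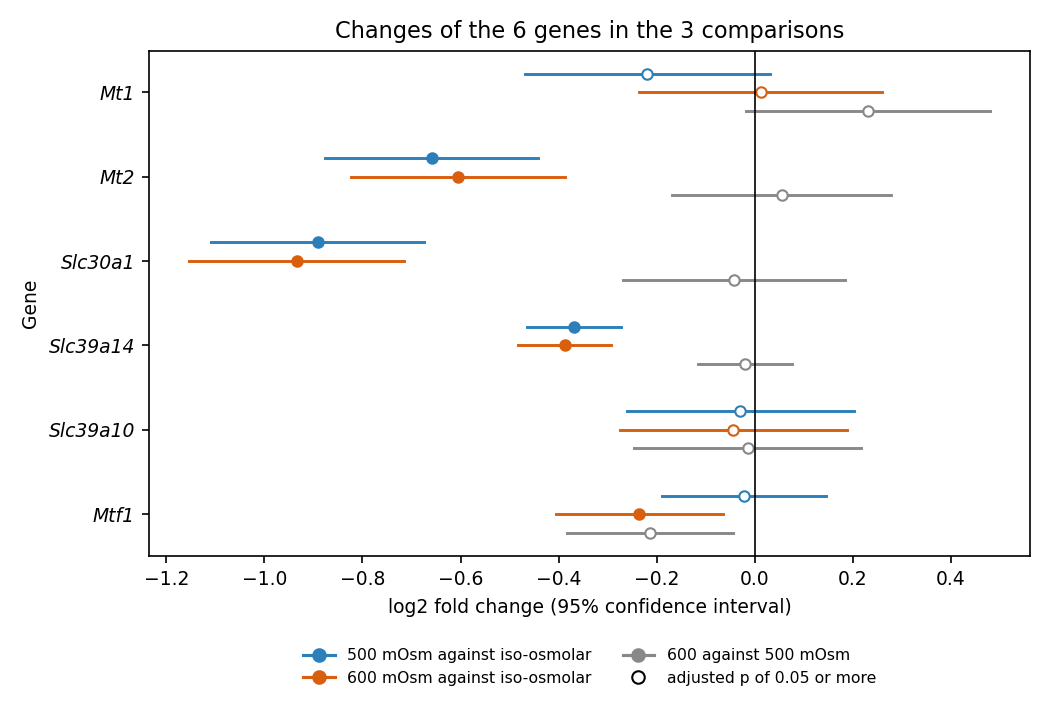
Log2 fold changes (horizontal axis) of the 6 genes (vertical axis) with 95% confidence intervals, for 500 mOsm and 600 mOsm against iso-osmolar medium and for 600 against 500 mOsm. Filled points passed an adjusted p of 0.05. The intervals of Mt2, Slc30a1 and Slc39a14 exclude 0 in both comparisons with iso-osmolar medium and include it between the intensities.

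Of the metallothioneins, Mt2 had 523, 510 and 543 counts in iso-osmolar medium, 322, 356 and 412 at 500 mOsm, and 344, 365 and 344 at 600 mOsm. In FPKM these were 43.3, 37.3 and 40.3, then 23.8, 23.9 and 28.6, and then 25.6, 29.7 and 23.3. Every stressed library was below every iso-osmolar library, and the libraries of the 2 intensities overlapped. The log2 fold change of Mt2 was -0.66 (SE 0.10, adjusted p = 0.000273) at 500 mOsm and -0.60 (SE 0.10, adjusted p = 0.000566) at 600 mOsm. Only 6.84% of all genes tested had a lower log2 fold change than Mt2 at 500 mOsm, and 9.13% at 600 mOsm. Between the intensities the difference was 0.05 with a 95% confidence interval from -0.17 to 0.28 (adjusted p = 0.736), so differences within this interval are not excluded.

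Mt1, which lies next to Mt2 on chromosome 8 and encodes the closely related protein, was called in none of the 3 comparisons. Its counts were 124, 129 and 138 in iso-osmolar medium, 116, 121 and 129 at 500 mOsm, and 119, 126 and 157 at 600 mOsm. In FPKM it had 10.6, 9.71 and 10.6, then 8.83, 8.38 and 9.22, and then 9.13, 10.6 and 10.9. The 500 mOsm libraries were lower than the iso-osmolar ones without overlap in FPKM, and the 600 mOsm libraries spanned the iso-osmolar range. The log2 fold change was -0.22 (95% confidence interval -0.47 to 0.03, adjusted p = 0.186) at 500 mOsm and 0.01 (-0.24 to 0.26, adjusted p = 0.947) at 600 mOsm. At 600 mOsm a fall of the size seen for Mt2 was outside this interval. Between the intensities Mt1 differed by 0.23 (-0.02 to 0.48, adjusted p = 0.155), with all 600 mOsm libraries above those at 500 mOsm in CPM.

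The balance of the metallothionein transcripts was compared directly, as the share of Mt2 in the summed FPKM of Mt1 and Mt2. It was 80.4%, 79.3% and 79.3% in the iso-osmolar libraries, 72.9%, 74.1% and 75.6% at 500 mOsm and 73.7%, 73.8% and 68.0% at 600 mOsm. All stressed libraries had a lower share than all iso-osmolar ones, and the 2 intensities overlapped. The mean share was 79.7% ± 0.624 (SD, n = 3), 74.2% ± 1.34 and 71.8% ± 3.31 in the same order. The difference from iso-osmolar medium was -5.44 percentage points at 500 mOsm and -7.81 at 600 mOsm, each with p = 0.1 in a two-sided exact permutation test (0.15 after Benjamini-Hochberg adjustment over the 3 pairs of groups), which is the smallest p that 3 libraries against 3 allow. Between 600 and 500 mOsm the difference was -2.37 percentage points (p = 0.4, same exact test), and -0.457 without 600 mOsm replicate 3. The summed FPKM was 53.9, 47.0 and 50.9 in iso-osmolar medium, 32.6, 32.3 and 37.8 at 500 mOsm, and 34.8, 40.2 and 34.2 at 600 mOsm.

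**Figure D3:**
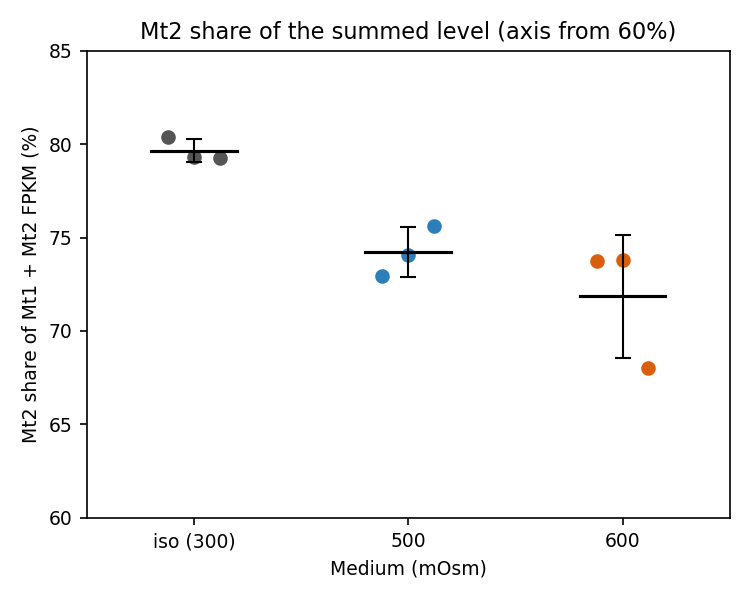
Share of Mt2 in the summed FPKM of Mt1 and Mt2 (vertical axis, percent, from 60%) in the 3 libraries of each medium (horizontal axis, mOsm). Lines with bars are means ± SD, and all 6 stressed libraries lie below the lowest iso-osmolar value of 79.3%.

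The other metallothionein genes were barely detected. Mt3, known mainly from brain, had 3 to 11 counts per library, and Mt4, known from stratified epithelium, had 0 to 5, and neither passed the filter on low counts. The other genes within 100 kb of Mt1 and Mt2 were Bbs2 and Nup93, which encodes a nuclear pore protein. At 500 mOsm the log2 fold change was 0.20 for Bbs2 (adjusted p = 0.34) and -0.09 for Nup93 (adjusted p = 0.257). At 600 mOsm it was 0.19 for Bbs2 (adjusted p = 0.322) and 0.09 for Nup93 (adjusted p = 0.222). Between 600 and 500 mOsm Nup93 was higher by 0.17 (adjusted p = 0.0253), and Bbs2 differed by -0.0063 (adjusted p = 0.98). GENCODE M21 also lists an antisense transcript, Gm45774, that shares 212 bases with Mt2 and has no row in the table, and the strand setting of the counting is not given in the sources used here.

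Mtf1, the zinc-sensing transcription factor, had 519, 581 and 599 counts in iso-osmolar medium, 560, 600 and 663 at 500 mOsm, and 471, 494 and 500 at 600 mOsm. Its FPKM was 3.13, 3.10 and 3.24, then 3.02, 2.94 and 3.35, and then 2.56, 2.93 and 2.47. The 500 mOsm libraries spanned the iso-osmolar range, and the 600 mOsm libraries lay below both groups. The log2 fold change was -0.02 (95% confidence interval -0.19 to 0.15, adjusted p = 0.875) at 500 mOsm and -0.23 (SE 0.0780, adjusted p = 0.0336) at 600 mOsm. Between 600 and 500 mOsm it was -0.21 (SE 0.0777, adjusted p = 0.057). The call at 600 mOsm was lost without iso-osmolar replicate 1 (adjusted p = 0.0648), 2 (0.0692) or 3 (0.0959), without 600 mOsm replicate 1 (0.112) or 3 (0.121), with limma on log2(FPKM + 1) (0.0795) and in a fit with the replicate block (0.0692). The gene 1110065P20Rik on the opposite strand overlaps Mtf1 by 721 bases. It had 459 to 719 counts in iso-osmolar medium and 491 to 1013 at 600 mOsm, a log2 fold change of 0.31 (SE 0.192, adjusted p = 0.23), and its part in the value of Mtf1 was not tested.

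Slc30a1 encodes ZnT1, the main zinc exporter of the cell membrane, and changed the most among the 6 genes. It had 399, 435 and 429 counts in iso-osmolar medium, 267, 222 and 251 at 500 mOsm, and 234, 203 and 236 at 600 mOsm. The FPKM was 3.50, 3.37 and 3.38, then 2.09, 1.58 and 1.85, and then 1.85, 1.75 and 1.69. All 6 stressed libraries were below the iso-osmolar ones, and the 2 intensities overlapped. The log2 fold change was -0.89 (SE 0.10, adjusted p = 2.2e-05) at 500 mOsm and -0.93 (SE 0.101, adjusted p = 1.82e-05) at 600 mOsm. Only 4.17% and 4.1% of all genes tested had a lower log2 fold change in these comparisons. The difference between the intensities was -0.04 (95% confidence interval -0.27 to 0.18, adjusted p = 0.799). An antisense gene over Slc30a1, 1700034H15Rik, had 3 to 17 counts per library.

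Slc39a14 encodes ZIP14, an importer of zinc that also carries iron and manganese, and had the most counts of the 6 genes. It had 3578, 3837 and 3882 counts in iso-osmolar medium, 2977, 3236 and 3324 at 500 mOsm, and 2968, 2651 and 3181 at 600 mOsm. The FPKM was 32.2, 30.5 and 31.3, then 23.9, 23.6 and 25.1, and then 24.0, 23.4 and 23.4. The stressed libraries were lower without overlap. Replicates were tighter than for the other members, with a biological coefficient of variation of 4.45% beside a common value of 7.56% over all genes. The log2 fold change was -0.37 (SE 0.0440, adjusted p = 3.7e-05) at 500 mOsm and -0.39 (SE 0.0441, adjusted p = 2.85e-05) at 600 mOsm, and between the intensities it was -0.02 (95% confidence interval -0.11 to 0.08, adjusted p = 0.79). Of all genes tested, 13.7% had a lower log2 fold change than Slc39a14 at 500 mOsm and 16.8% at 600 mOsm.

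Slc39a10, which encodes the zinc importer ZIP10, showed no detectable change. Its counts were 551, 514 and 555 in iso-osmolar medium, 609, 501 and 619 at 500 mOsm, and 524, 532 and 544 at 600 mOsm. In FPKM it had 4.61, 3.80 and 4.17, then 4.56, 3.41 and 4.35, and then 3.95, 4.38 and 3.72. The 3 groups overlapped. The log2 fold change was -0.03 (95% confidence interval -0.26 to 0.20, adjusted p = 0.877) at 500 mOsm and -0.04 (-0.28 to 0.19, adjusted p = 0.784) at 600 mOsm. Between the intensities it was -0.01 (-0.25 to 0.22, adjusted p = 0.94).

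Mt2, Slc30a1 and Slc39a14 shared 1 pattern, lower at both intensities than in iso-osmolar medium and not called between the intensities. Of all genes tested, 733 (5.60%) had this pattern. The pattern was worded from these 3 genes, so its share over all genes is given as a description alone. A gene not called between the intensities may still differ between them. Over the 6 genes the median log2 fold change was -0.29 at 500 mOsm and -0.31 at 600 mOsm, beside 0.01 over all genes tested in each comparison, and -0.02 between the intensities beside 0.01. The 2 comparisons with iso-osmolar medium share the control libraries.

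Of 24 listed genes of the Slc30 and Slc39 families 16 were tested, and 4 fell and 0 rose at 500 mOsm, while 5 fell and 1 rose at 600 mOsm, where the count was 3 without iso-osmolar replicate 3 or without 600 mOsm replicate 1 or 3. The shares over all genes tested were 14.8% lower and 13.2% higher at 500 mOsm and 20.0% lower and 15.1% higher at 600 mOsm. Apart from Slc30a1, Slc39a10 and Slc39a14 these counts were 2 lower and 0 higher of 13 at 500 mOsm, and 3 lower and 1 higher of 13 at 600 mOsm. The median log2 fold change of the 13 was -0.07 at 500 mOsm and 0.01 at 600 mOsm, beside 0.01 over all genes tested. None of the 13 changed by 0.5 or more on the log2 scale against iso-osmolar medium, although Slc39a6 and Slc30a4 fell at 600 mOsm by more than Slc39a14 in fitted value. The plot of the transporters shows Slc30a1 apart from the rest of both families.

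**Figure D4:**
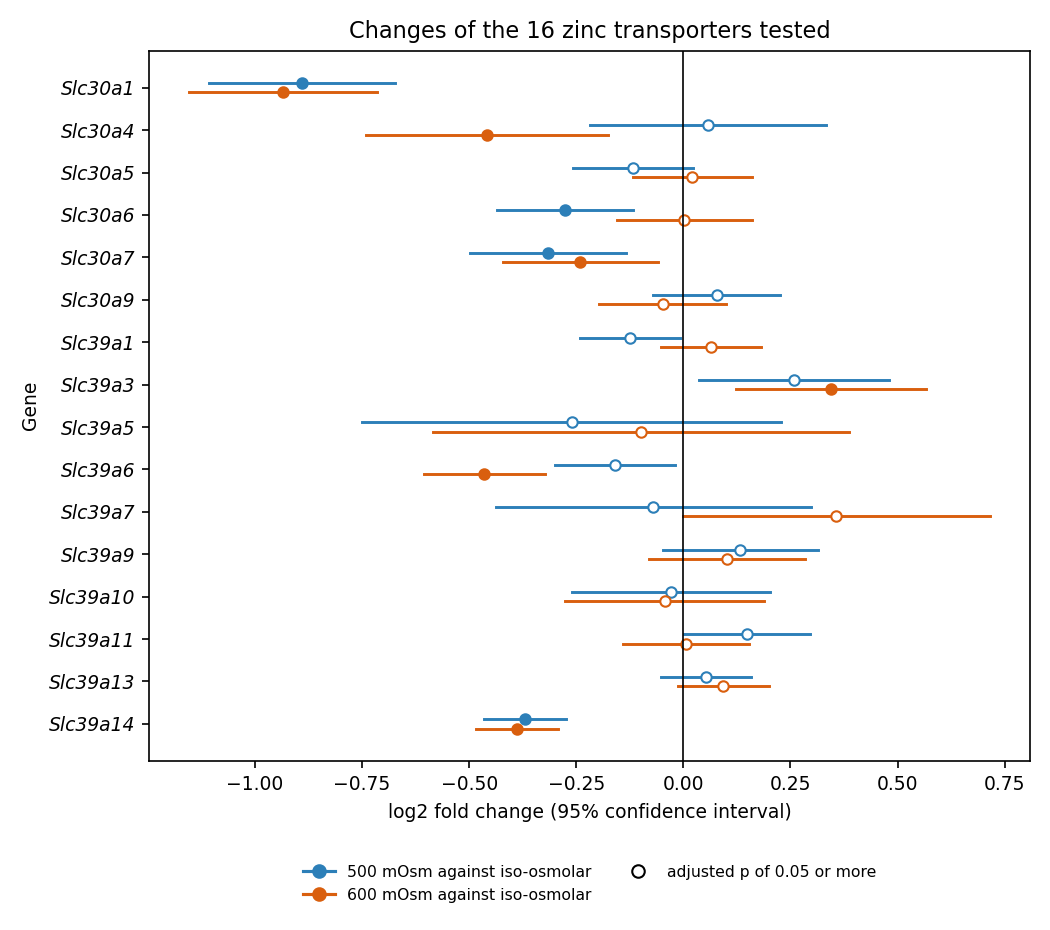
Log2 fold changes (horizontal axis) with 95% confidence intervals of the 16 tested genes of the Slc30 and Slc39 families (vertical axis) at 500 and 600 mOsm against iso-osmolar medium. Filled points passed an adjusted p of 0.05, and Slc30a1 lies lowest in both comparisons, at -0.89 and -0.93.

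In the Slc30 family, Slc30a6 and Slc30a7, transporters of the Golgi and secretory pathway, were lower at 500 mOsm by log2 fold changes of -0.28 (SE 0.0730, adjusted p = 0.0123) and -0.32 (SE 0.0834, adjusted p = 0.0124). This call of Slc30a7 was lost without iso-osmolar replicate 1 (adjusted p = 0.0521) and by limma with 1 (0.0532) or 0.1 (0.0568) added to FPKM. At 600 mOsm Slc30a7 remained below iso-osmolar medium at -0.24 (adjusted p = 0.0405), a call lost when any 1 of the iso-osmolar libraries was left out, or 600 mOsm replicate 1 or 3 (adjusted p from 0.033 to 0.164 over all libraries left out in turn), with the replicate block (0.0807) and by limma with 1 (0.0908) or 0.1 (0.096) added, while Slc30a6 was at 0.00 (adjusted p = 0.986). The vesicular transporter gene Slc30a4 differed by 0.06 (adjusted p = 0.788) at 500 mOsm and fell by 0.46 on the log2 scale (SE 0.130, adjusted p = 0.0162) at 600 mOsm. This call was lost without iso-osmolar replicate 3 (adjusted p = 0.057) and without 600 mOsm replicate 1 (0.0701) or 3 (0.0583). Among the transporters called between the intensities it was the only one that differed by 0.5 or more, at -0.52 (SE 0.129, adjusted p = 0.00968). Its libraries had 4.32, 3.64 and 4.49 FPKM in iso-osmolar medium, 4.99, 3.48 and 4.46 at 500 mOsm, and 2.73, 3.46 and 2.76 at 600 mOsm, where all 3 were below the other groups.

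In the Slc39 family, Slc39a6, which encodes the importer ZIP6 that pairs with ZIP10, fell by 0.46 on the log2 scale at 600 mOsm (SE 0.0651, adjusted p = 0.000157), beside -0.16 (adjusted p = 0.0869) at 500 mOsm, and differed by -0.30 (adjusted p = 0.00366) between the intensities. The importer gene Slc39a3 rose by 0.35 at 600 mOsm (SE 0.102, adjusted p = 0.02), beside 0.26 (adjusted p = 0.0813) at 500 mOsm. The call of Slc39a3 was lost without iso-osmolar replicate 1 (adjusted p = 0.0628) or 3 (0.0681) and without 600 mOsm replicate 1 (0.0606) or 3 (0.094), and with the replicate block (0.0509). Between 600 and 500 mOsm 2 of the 16 were higher, Slc30a6 at 0.28 (adjusted p = 0.0121) and Slc39a1 at 0.19 (adjusted p = 0.0183), and 2 were lower, Slc30a4 and Slc39a6. The call of Slc39a1 was lost without 500 mOsm replicate 1 (adjusted p = 0.0762) or 3 (0.0613) and without 600 mOsm replicate 3 (0.0655). Over all genes tested 11.9% were higher and 17.2% lower in this comparison, near the shares of the transporters.

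The 8 zinc transporter genes that were not tested had at most 13 counts in any library. Slc30a10, which encodes a manganese exporter, was singled out after its values were seen. It had 12, 9 and 13 counts at 500 mOsm and 0 counts in all 3 iso-osmolar and all 3 600 mOsm libraries. Its mean level at 500 mOsm was 0.442 ± 0.0892 CPM (SD, n = 3). For the groups at 0, a floor of 3 counts per library was taken. The mean at 500 mOsm was 3.47-fold above this floor in iso-osmolar medium and 3.53-fold above it at 600 mOsm. These folds leave out the spread between libraries and the counting error at 500 mOsm.

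Beyond the metallothioneins and Slc30a1, genes that the literature lists as targets of MTF-1 were counted as a group of 7, all tested. At 500 mOsm 3 of the 7 fell and 0 rose, and at 600 mOsm 3 fell and 1 rose, beside 14.8% lower and 13.2% higher at 500 mOsm and 20.0% and 15.1% at 600 mOsm over all genes tested. Their median log2 fold change was -0.19 at 500 mOsm and -0.23 at 600 mOsm, beside 0.01 over all genes tested. Ndrg1, a gene known to respond to hypoxia and other stresses, had 1259, 1364 and 1277 counts in iso-osmolar medium, 650, 690 and 668 at 500 mOsm, and 598, 498 and 581 at 600 mOsm. Its log2 fold change was -1.08 (SE 0.0673, adjusted p = 1.33e-07) and -1.24 (SE 0.0680, adjusted p = 5.88e-08). Hmox1, which encodes heme oxygenase and is also a target of Nrf2, had 86.4, 91.6 and 92.6 FPKM in iso-osmolar medium, 62.6, 67.7 and 65.5 at 500 mOsm, and 57.3, 59.3 and 54.6 at 600 mOsm. It fell by 0.46 on the log2 scale (adjusted p = 2.08e-05) and by 0.64 (adjusted p = 1.53e-06), and by a further 0.18 between the intensities (adjusted p = 0.0219), a difference lost without 500 mOsm replicate 2 (0.107) and without 600 mOsm replicate 1 (0.0641) or 3 (0.078), and with no filter on low counts (0.088). Gclc, for glutathione synthesis, fell by 0.20 (adjusted p = 0.0037) and 0.23 (adjusted p = 0.00152). Selenoh, listed in the table as 2700094K13Rik, rose by 0.16 at 600 mOsm (adjusted p = 0.0203), a call lost without iso-osmolar replicate 2 (0.0791), without 600 mOsm replicate 1 (0.0664) or 2 (0.056), with the replicate block (0.052), with library size alone (0.0524) and with no filter on low counts (0.0658). These genes answer to other factors too, and the part of MTF-1 in their values was not tested.

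Genes that handle copper, which metallothioneins also bind, did not move one way. Of 12 tested, 2 rose and 3 fell at 500 mOsm, and 3 rose and 2 fell at 600 mOsm, where 28.0% and 35.1% of all genes tested were called in either direction. The copper exporter gene Atp7a fell by 0.59 on the log2 scale at 500 mOsm (adjusted p = 0.0263) and by 0.63 at 600 mOsm (adjusted p = 0.0176). Its relative Atp7b rose by 1.74 (adjusted p = 0.00993) and 1.53 (adjusted p = 0.0215) from a level of 0.155 CPM. Atp7b had 3 to 4 counts in iso-osmolar medium, near the limit of 3 counts, so the size of this rise is uncertain. It had 9 to 21 counts at 500 mOsm and 9 to 13 at 600 mOsm. Cox17, a copper chaperone for cytochrome c oxidase, changed by -3.29 at 500 mOsm (adjusted p = 2.97e-05) and by -3.63 at 600 mOsm (adjusted p = 2.61e-05) on the log2 scale, from a level of 1.44 CPM. Cox17 had 29 to 40 counts in iso-osmolar medium, 1 to 6 at 500 mOsm and 2 to 3 at 600 mOsm. The stressed libraries were near the limit of 3 counts, so the size of this fall is uncertain. The metalloreductase gene Steap2 rose by 0.29 at 500 mOsm (adjusted p = 0.00103), and the copper chaperone gene Atox1 rose by 0.26 at 600 mOsm (adjusted p = 0.00534).

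Of 13 tested genes for iron and manganese handling, 2 rose and 6 fell at 500 mOsm, and 1 rose and 4 fell at 600 mOsm, beside the same 28.0% and 35.1% over all genes. The largest falls were those of Ireb2, for the iron regulatory protein IRP2, by 0.74 at 500 mOsm (adjusted p = 0.0059) and of Slc25a37, for the mitochondrial iron carrier mitoferrin, by 1.09 at 600 mOsm (adjusted p = 4.44e-07). Fbxl5 fell by 0.45 at 500 mOsm (adjusted p = 0.00178), and Slc25a28, for the second mitoferrin, by 0.43 at 600 mOsm (adjusted p = 0.00764). Cp, which encodes the ferroxidase ceruloplasmin, rose by 0.57 (adjusted p = 0.0252) and 0.56 (adjusted p = 0.023), and the ferritin gene Ftl1 rose by 0.25 at 500 mOsm (adjusted p = 0.01).

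Glucocorticoids are the other well-known inducers of Mt1 and Mt2, and 7 genes of a list tied to them were tested, which were genes they induce and Nr3c1, the gene of their receptor. At 500 mOsm 1 rose and 2 fell, where 28.0% of all genes tested were called, and at 600 mOsm 4 fell and 0 rose, where 20.0% of all genes tested were lower. Dusp1, also an immediate early gene of stress kinases, rose by 3.52 on the log2 scale at 500 mOsm (adjusted p = 1.92e-12) and differed by 0.05 at 600 mOsm (adjusted p = 0.516). Per1 fell by 1.70 (adjusted p = 6.16e-08) and Tsc22d3 by 0.63 (adjusted p = 0.00147) at 500 mOsm. At 600 mOsm Sgk1 fell by 0.71 (adjusted p = 2.02e-06) and Klf9 by 0.54 (adjusted p = 0.0269), and the receptor gene Nr3c1, named after its values were seen because it is not an induced gene, fell by 0.50 (adjusted p = 0.00377).

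The genes most like each member over the 9 libraries were found by Pearson's r of log2 CPM among the other genes whose log2 CPM averaged at least 3 (8438 genes for all members but Mt1). The 9 points share their media and group structure, so r is given as a description. Mt2 was most like Cd44 (r = 0.98), Zfp280b and Dhx33, and Cd44 had log2 fold changes of -0.57 and -0.56 at 500 and 600 mOsm. Slc30a1 was most like Dicer1 (r = 0.99), Proser1 and Thbd, and Slc39a14 was most like Plscr1 (r = 0.99), Cux1 and Pkp1, all of which were lower at both intensities in the fitted values. Mtf1 was most like Sik2 (r = 0.97), R3hdm1 and Srgap3, and Sik2 had log2 fold changes of -0.04 and -0.58. Mt1 was most like Rars (r = 0.90), Dhps and Lsm10, and Slc39a10 most like 1110037F02Rik (r = 0.96), Canx and Eif1ax.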

How the data were processed

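Mouse embryonic fibroblast RNA was sequenced by the authors as paired-end reads of 150 bases and mapped to mm10. The submitters' processing notes name CASAVA 1.8 and STAR. The counting tool and strand setting are not given in the sources used here. The authors deposited 1 table of 35275 genes with raw read counts and with FPKM (counts scaled to gene length and library total) for each of 9 libraries. Their columns of mean FPKM, fold changes and p-values were not used.

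Groups were taken from the labels. The quasi-likelihood test of edgeR 4.0.16 (R 4.3.3) was run on TMM-normalized counts of the 13082 genes kept by filterByExpr, with all 9 libraries, with Benjamini-Hochberg adjustment over all genes tested and a threshold of 0.05. Levels are compared between genes only in FPKM. The share of Mt2 was compared by exact permutation. Alternatives were RLE factors, library size alone, no filter, at least 10 counts in every library, DESeq2 1.42.0, a replicate block, a fit of 2 groups at a time, limma 3.58.1 on log2(FPKM + 1) or log2(FPKM + 0.1), and each library left out. The test was tried on simulated counts. Shared sequence was searched with blastn 2.17.0. Genes were named by a rule: the 6 members, called genes of the metallothionein, Slc30, Slc39 and MTF-1 target lists (in full at an absolute log2 fold change of 0.5 or more), the 2 called genes with the largest change in each direction of the other lists, the 3 genes most like each member, and genes within 100 kb of Mt1 and Mt2. The members and lists were chosen with earlier results of these data known. Promoter sequences were taken from RefSeq for 5 of the 6 genes, and transcripts from GENCODE M21.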

Additional observations from a re-analysis of the deposited data

How the results depend on the processing

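Calls of Mt2, Slc30a1 and Slc39a14 against iso-osmolar medium kept their direction and passed the threshold under all 9 alternatives and without each library. The call of Mtf1 at 600 mOsm did not, with adjusted p from 0.0163 to 0.121 without each library, and no filter (0.0687) and limma with 0.1 added (0.0824) also lost it. The number of the 6 genes called between the intensities was 1 with at least 10 counts in every library, when Mtf1 passed (adjusted p = 0.0461), and 0 to 1 without each library, 1 being without 600 mOsm replicate 2. The number of zinc transporters called at 500 mOsm was 7 with no filter, 3 of them higher (Slc39a3, Slc30a3 and Slc30a10). In that setting 4808 of 23419 genes tested were called. Slc30a3 and Slc30a10 had not passed the filter on low counts and so could not be called among the 16 transporters tested above. At 600 mOsm the number of zinc transporters called was 3 to 6 without each library. The cause of the other shifts was not tested.

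Log2 fold changes near 0 changed sign. At 600 mOsm Mt1 was -0.0087 by library size alone and -0.012 and -0.013 by limma with 1 or 0.1 added, and Slc30a6 was -0.017, -0.017 and -0.018 under the same 3 alternatives. Between the intensities Slc39a10 was 0.0067 and Slc39a14 0.0019 with no filter. Without each library, Slc39a10 ranged from -0.11 to 0.071 at 500 mOsm, from -0.10 to 0.024 at 600 mOsm and from -0.12 to 0.067 between the intensities, and Slc30a4 from -0.060 to 0.17 at 500 mOsm. At 600 mOsm Mt1 ranged from -0.058 to 0.086 and Slc30a6 from -0.034 to 0.040. Between the intensities Mt2 ranged from -0.025 to 0.14, Slc30a1 from -0.13 to 0.058, Slc39a14 from -0.029 to 0.0032 and Slc39a3 from -0.0061 to 0.19. The difference in the Mt2 share between 600 and 500 mOsm ranged from -3.33 to -0.457 percentage points. The share from CPM in place of FPKM differed by -5.36 and -7.69 percentage points from iso-osmolar medium.

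The replicate number as a block called 3, 3 and 0 of the 6 genes in the 3 comparisons and 3111, 3798 and 3089 of all genes, against 3659, 4594 and 3810 without it. Libraries with the same number correlated in their deviations by -0.37 to 0.28, and 0 of 9 was most like one of its own number, so the numbers were not taken to pair them. With 3 libraries per group and 116 to 157 counts on Mt1, changes of Mt1 under about 0.25 on the log2 scale were not detectable.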
